A study of Mus musculus with 6 samples.

Results

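Eosinophils and basophils store toxic proteins and proteases in their granules, and 8 genes that encode such proteins were followed here through RNA sequencing libraries of mouse haematopoietic stem cells. The genes were taken by name, 6 for eosinophil granule proteins and ribonucleases (Prg2, Prg3, Epx, Ear1, Ear2 and Ear6) and 2 for basophil proteases (Prss34 and Mcpt8), out of 23574 gene features in the count tables. They were chosen by name with their raw counts per library known, as transcripts that can trace granulocytes in single libraries, so their values are a description and carry no test. All 8 were listed in the files, each with 1 RefSeq transcript.

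The libraries came from HLF KO mice (n = 3), which lack Hlf (hepatic leukaemia factor, a PAR bZIP transcriptional regulator), and from wild-type littermates (n = 3), all of strain C57BL/6. Each library was made from total RNA of 3000 freshly isolated cells that were negative for lineage markers, positive for Sca-1 and c-Kit, and negative for CD34 and Flt3. The sources used here do not give the ages of the mice, the part of Hlf that was removed, the antibodies of the lineage panel or whether each library came from its own animal, so a p-value reflects only how these libraries vary, and part of that may be technical.

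Eosinophils arise in the bone marrow from myeloid progenitors that respond to interleukin 5, and basophils from progenitors that respond to interleukin 3. Both fill their granules while still immature, and in eosinophils the transcripts of granule proteins are made mainly before the cell leaves the marrow. A sort that removes lineage-positive cells is meant to exclude mature granulocytes. In bulk RNA a high level in few cells and a low level in many cells cannot be told apart.

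The knockout libraries held 10462713, 10182464 and 11998296 counts and the wild-type libraries 8346335, 9902102 and 8800688. Hlf had 309, 399 and 431 counts in knockout libraries 1, 2 and 3, against 10768, 15982 and 10055 in wild-type libraries 1, 2 and 3, and it was the 1 gene of 10204 called by edgeR's quasi-likelihood test (log2 fold change -5.33, SE 0.26, adjusted p = 1.9e-06). The stem cell gene list without Hlf summed to between 520 and 596 CPM (counts relative to library size, adjusted by TMM factors) in knockout libraries and between 553 and 697 CPM in wild-type libraries. The sum covers genes that went both ways. Mycn had 192, 217 and 280 CPM in knockout libraries 1, 2 and 3 against 52.0, 128 and 116 CPM in wild-type libraries 1, 2 and 3. Procr had 31.9, 11.1 and 26.7 CPM against 40.1, 93.3 and 91.5 CPM. Of 10 tested genes of the list with Hlf, 4 were lower and 1 higher in knockout at an edgeR unadjusted p under 0.05 (4.65% and 2.63% of all tested genes). The median gene with several listed transcripts reached 3 counts in all 6 libraries together and the median gene with 1 reached 79, so a low count of such a gene is not read as low expression. Kit and Ly6a (Sca-1), which define the sort, are in that class, with 1 and 0 counts in all.

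Nearly all counts of the granule genes came from 1 library. Wild-type library 3 held 10046 counts over the 8 genes, 0.114% of its total. Knockout libraries 1, 2 and 3 held 11, 4 and 21, and wild-type libraries 1 and 2 held 311 and 90. All 8 genes had a count in wild-type library 3, whereas the other libraries had a count for between 1 and 3 of them. Of all 23574 features, 12331 had a count in wild-type library 3, the most of any library, and 10796 to 12207 in the others. Intervals and limits given below cover counting error only.

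**Figure D1:**
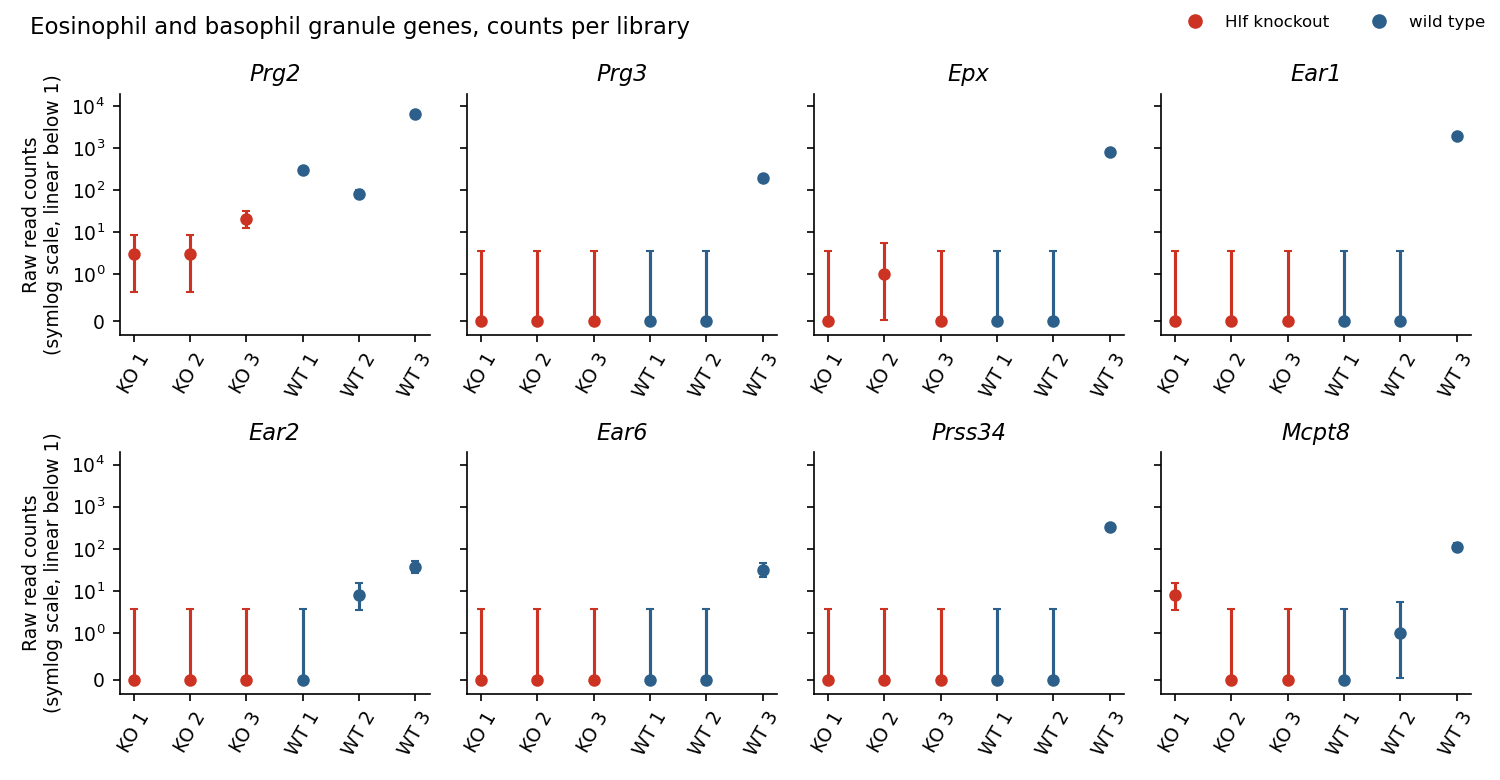
Raw read counts of the 8 granule genes (vertical axis, symmetric log scale that is linear below 1) in the 3 knockout libraries (red) and the 3 wild-type libraries (blue), with exact 95% Poisson intervals as bars. Wild-type library 3 is the highest for every gene, from 32 counts of Ear6 to 6521 of Prg2, and most other points sit at 0.

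Prg2 encodes eosinophil major basic protein, the main protein of the crystalline core of the eosinophil granule. It had 3, 3 and 21 counts in knockout libraries 1, 2 and 3, against 311, 81 and 6521 in wild-type libraries 1, 2 and 3. On the CPM scale these were 0.274, 0.283 and 1.82 in knockout and 39.6, 8.42 and 723 in wild type. Every knockout library was below every wild-type library, and wild-type library 3 was 18.3-fold above the next highest, wild-type library 1. Prg2 was the 1 gene of the 8 with counts in all 6 libraries and the 1 that passed the filter on low counts.

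Prg3, a neighbour of Prg2 on chromosome 2, encodes a homologue of major basic protein. It had 0 counts in each knockout library, against 0, 0 and 196 in wild-type libraries 1, 2 and 3, where the last is 21.7 CPM (95% interval 18.8 to 25). Taken without its interval, that value was 56.9-fold the limit of 3 counts in wild-type library 1, the highest such limit among the other libraries. The longest reading frames of Prg2 and Prg3, of 672 and 669 bases, shared 63.7% of their bases, and their GENCODE transcripts had 0 stretches of 50 bases in common.

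Epx encodes eosinophil peroxidase, a haem enzyme that oxidises halides and is used as a marker of the eosinophil lineage. It had 0, 1 and 0 counts in knockout libraries 1, 2 and 3, against 0, 0 and 826 in wild-type libraries 1, 2 and 3. The wild-type library 3 level was 91.5 CPM (95% interval 85.4 to 98.0). With a 1-sided limit of 3 counts, a count of 0 allows up to 0.274 CPM in knockout library 1 and 0.260 CPM in knockout library 3. In wild-type libraries 1 and 2 it allows up to 0.382 and 0.312 CPM.

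Ear1, Ear2 and Ear6 encode eosinophil-associated ribonucleases of the RNase A superfamily, a group of near-identical mouse genes on chromosome 14. Their first 120 coding bases, from the GENCODE M21 transcripts with the start codon first, are shown because reads from such copies can be assigned to the wrong gene. Capitals mark the bases that differ from Ear1 at the same position.
Ear1: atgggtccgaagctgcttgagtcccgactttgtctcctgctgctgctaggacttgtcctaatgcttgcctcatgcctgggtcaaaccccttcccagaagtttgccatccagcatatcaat
Ear2: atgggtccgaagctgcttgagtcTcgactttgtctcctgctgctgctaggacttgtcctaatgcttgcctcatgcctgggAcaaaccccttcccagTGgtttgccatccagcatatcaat
Ear6: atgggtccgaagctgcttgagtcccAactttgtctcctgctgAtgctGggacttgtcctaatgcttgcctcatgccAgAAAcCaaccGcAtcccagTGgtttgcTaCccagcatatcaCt
In this stretch Ear2 differed from Ear1 at 4 positions and Ear6 at 15. Over the whole reading frame Ear1 shared 95.1% of its bases with Ear2 and 87.4% with Ear6. Of the 50-base stretches of the Ear1 transcript, 23.8% also occurred in Ear2, 14.8% in Ear10 and 1.36% in Ear6. The treatment of reads that match several genes is not stated in the sources available, so the split between these genes is uncertain.

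Ear1 had 0 counts in each knockout library, against 0, 0 and 1992 in wild-type libraries 1, 2 and 3. In library 3 this was 221 CPM (95% interval 211 to 231). Taken without its interval, the value was 578-fold the limit of 3 counts in wild-type library 1, the highest among the other libraries. Ear6 followed the same pattern with 0 counts in those 5 libraries and 32 in wild-type library 3. Ear2 had 0, 0 and 0 counts in knockout libraries 1, 2 and 3, against 0, 8 and 37 in wild-type libraries 1, 2 and 3. Ear2 was therefore the 1 ribonuclease of the 3 with counts in a second library, wild-type library 2, where Ear1 had 0.

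Reading frames of these copies are alike, and so are the bases in front of them. The 150 bases before the start site of each ribonuclease gene are shown to compare the copies (RefSeq, GRCm38.p6, 5′ to 3′ along the gene's strand).
Ear1, chr14:43819640-43819789, minus strand: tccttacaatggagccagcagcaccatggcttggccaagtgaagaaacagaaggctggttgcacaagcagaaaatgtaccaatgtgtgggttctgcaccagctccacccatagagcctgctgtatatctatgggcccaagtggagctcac
Ear2, chr14:44102504-44102653, plus strand: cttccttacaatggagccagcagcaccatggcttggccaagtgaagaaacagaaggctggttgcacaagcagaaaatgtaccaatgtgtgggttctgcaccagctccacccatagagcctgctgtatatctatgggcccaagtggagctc
Ear6, chr14:51853618-51853767, plus strand: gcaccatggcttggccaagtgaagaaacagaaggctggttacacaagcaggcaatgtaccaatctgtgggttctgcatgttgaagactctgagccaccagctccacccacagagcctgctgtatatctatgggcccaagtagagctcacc
Over the 250 bases before the start site, Ear1 and Ear2 were identical at 99.2% of 248 aligned bases and Ear1 and Ear6 at 92.6% of 229. The counts assigned to them in wild-type library 3 were 1992 for Ear1, 37 for Ear2 and 32 for Ear6.

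Prss34 and Mcpt8 encode serine proteases, mouse mast cell proteases 11 and 8, that are known in mice mainly from basophils. Prss34 had 0 counts in each knockout library, against 0, 0 and 329 in wild-type libraries 1, 2 and 3 (36.5 CPM in library 3, 95% interval 32.6 to 40.6). Without its interval, that value was 95.5-fold the limit of 3 counts in wild-type library 1, the highest among the other libraries. Mcpt8 had 8, 0 and 0 counts in knockout libraries 1, 2 and 3, against 0, 1 and 113 in wild-type libraries 1, 2 and 3. It was the 1 gene of the 8 with more than 1 count in knockout library 1 apart from Prg2, and wild-type library 3 stood 17.1-fold above that library on the CPM scale.

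Promoter windows were listed for 7 of the 8 genes, all but Prg2. The motifs AGATAA and TGATAA, forms of the site bound by GATA factors, were searched on both strands in the 250 bases before the start site, and occurred in 2 of the 7, Prg3 and Prss34. Of 27025 mouse promoters of the same length, 17.0% held at least 1 of these motifs. GAGGAA, a form of the PU.1 site, occurred in 1 of the 7, Mcpt8, against 23.1% of all promoters. AGATAA and TGATAA share the letters GATAA, and no matches overlapped in these windows. The last 150 bases before the start sites of the GATA-containing genes are shown with the motif in capitals (RefSeq, GRCm38.p6, along the gene's strand, where TTATCA is TGATAA on the opposite strand).
Prg3, chr2:84988065-84988214, plus strand: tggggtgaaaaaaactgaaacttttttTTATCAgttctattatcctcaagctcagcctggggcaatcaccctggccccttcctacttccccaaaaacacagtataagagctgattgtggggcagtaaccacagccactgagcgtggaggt
Prss34, chr17:25298244-25298393, plus strand: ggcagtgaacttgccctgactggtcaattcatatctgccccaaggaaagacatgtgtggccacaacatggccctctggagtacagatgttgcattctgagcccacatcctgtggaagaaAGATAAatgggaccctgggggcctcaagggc
A match describes the letters only. Absence of these motifs from the Epx and ribonuclease windows concerns these 250 bases alone.

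Within wild-type library 3 the genes differed widely in level per transcript length. Prg2 stood at 862 CPM per kb of transcript and Ear1 at 310. Epx (34.0), Prss34 (29.9) and Prg3 (22.9) followed, with Mcpt8 at 15, Ear2 at 5.70 and Ear6 at 4.97. The 95% counting intervals of Epx (31.8 to 36.4) and Prss34 (26.7 to 33.3) overlapped, and so did those of Ear2 (4.01 to 7.86) and Ear6 (3.40 to 7.02). Prg3 (19.8 to 26.3) lay below Prss34 and above Mcpt8 (12.3 to 18.0) without overlap. Since this is 1 library, the order has no replicate check.

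**Figure D2:**
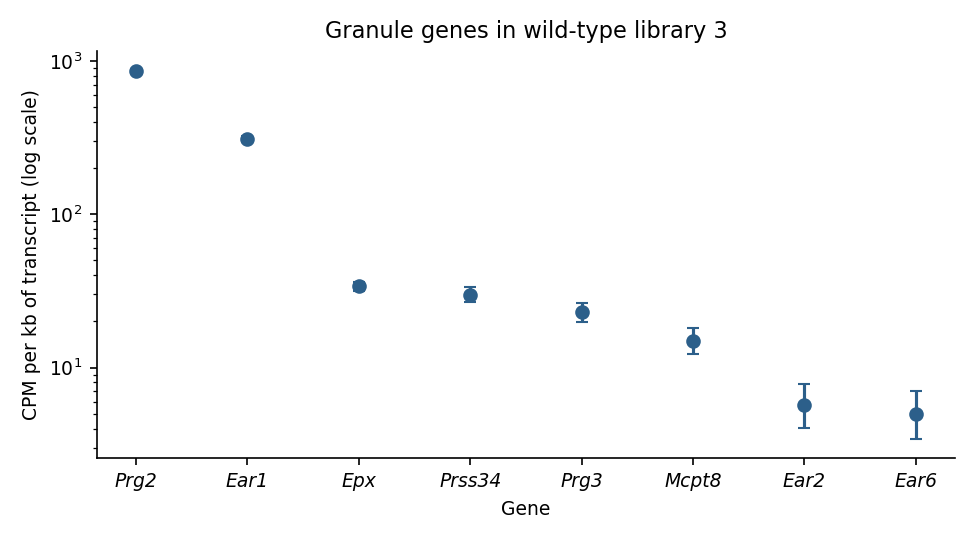
Level of each granule gene in wild-type library 3 in CPM per kb of transcript (vertical log axis), genes ordered by level, with exact 95% Poisson intervals as bars. Prg2 at 862 and Ear1 at 310 stand well above the other 6 genes, which lie between 4.97 and 34.0.

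Prg2 in the other wild-type libraries was not accompanied by the rest of the genes in the proportions of wild-type library 3. There, 1 count of Epx came with 7.89 counts of Prg2, and 1 of Ear1 with 3.27. At those ratios the 311 counts of Prg2 in wild-type library 1 would go with 95 counts of Ear1, 39.4 of Epx, 15.7 of Prss34 and 9.35 of Prg3. Each of these 4 genes had 0 counts there, a result that allows up to 3 counts. In wild-type library 2 the 81 counts of Prg2 would go with 24.7 of Ear1 and 10.3 of Epx, against 0 seen for each. Ear2 went the other way in wild-type library 2, with 8 counts seen and 0.460 at that ratio. Knockout library 3, with 21 counts of Prg2, would have 6.41 of Ear1 and 2.66 of Epx, and 0 of each were seen. The genes were chosen with these counts known, so the comparison is a description and not a test. The ratios of the ribonucleases also rest on an uncertain split of reads.

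**Figure D3:**
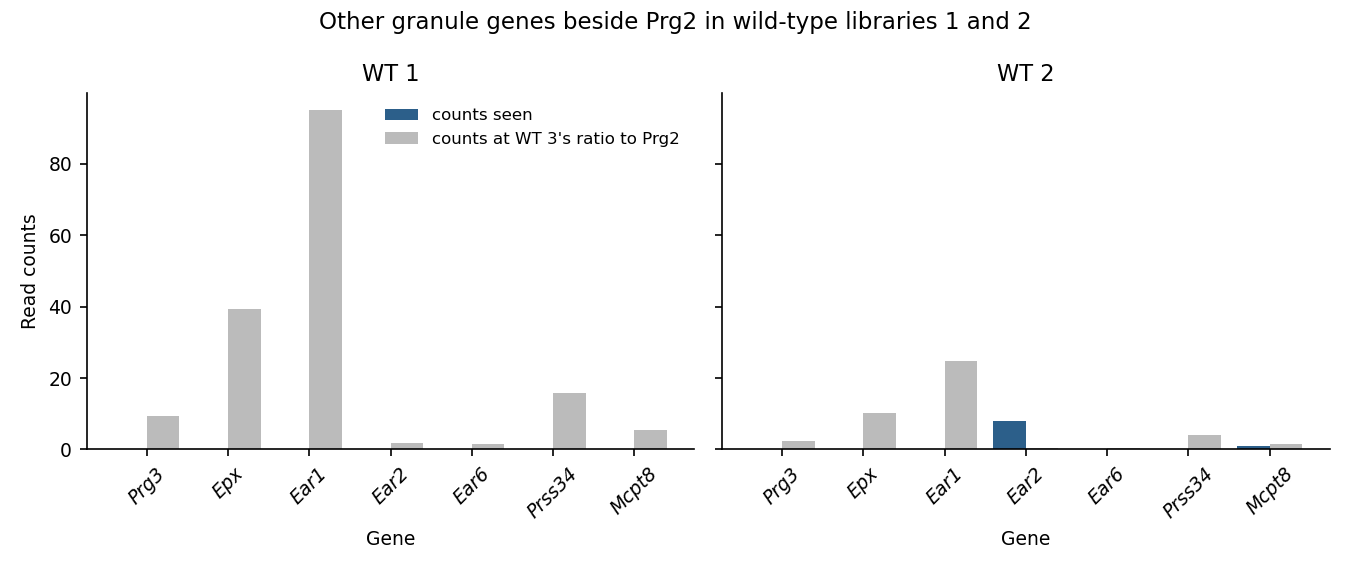
Read counts of the 7 other granule genes in wild-type libraries 1 (left) and 2 (right), as seen (blue) and as the ratio of each gene to Prg2 in wild-type library 3 would give (grey). In library 1 no blue bar appears beside grey bars of up to 95 counts, and in library 2 Ear2 is the gene seen above its grey bar by more than 1 count.

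Knockout and wild-type libraries were then set side by side. The summed eosinophil genes averaged 0.824 ± 0.864 CPM in knockout and 371 ± 601 CPM in wild type (SD, n = 3 each), a difference of -370.2 CPM that became -23.4 CPM without wild-type library 3. The summed basophil genes averaged 0.244 ± 0.423 CPM in knockout and 16.4 ± 28.3 CPM in wild type (SD, n = 3 each), a difference of -16.1 CPM that became 0.191 CPM without wild-type library 3. The direction of the basophil difference thus rested on that library. In wild type the SD exceeded the mean for both sums.

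For Prg2, the fitted log2 fold change was -8.30 (SE 2.16), and -4.89 (SE 1.35) without wild-type library 3. The remaining 7 genes did not pass the filter on low counts, so no fold change was fitted for them. All knockout libraries were below all wild-type libraries for Prg2. The same held for 6.85% of the 10204 tested genes, and since the genes were chosen with these counts known nothing is read from it.

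Other genes known from eosinophils were highest in various libraries, with Alox15 and Ear10 concentrated in wild-type library 3. Of 18 names of eosinophil surface and effector genes, 11 were listed in the files, 3 of these had 0 counts in all libraries and 4 were tested. The 11 summed to 27.0, 20.7 and 20.9 CPM in knockout libraries 1, 2 and 3, against 24.7, 31.0 and 43.7 CPM in wild-type libraries 1, 2 and 3. The 4 had a median log2 fold change of -1.58, against -0.051 for all tested genes, and -0.248 without wild-type library 3. None of them passed edgeR's test at adjusted p under 0.05, where 0.0098% of all tested genes passed, and 0 had an unadjusted p under 0.05.

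Il5ra, the specific chain of the interleukin 5 receptor, had 5, 11 and 0 counts in knockout libraries 1, 2 and 3, against 132, 1 and 58 in wild-type libraries 1, 2 and 3 (log2 fold change -3.93, SE 1.92, edgeR adjusted p = 0.69). Wild-type library 1, where Epx and Ear1 had 0 counts, was its highest. Ccr3, the eotaxin receptor, had 8, 0 and 0 counts in knockout libraries and 1, 102 and 4 in wild-type libraries, with wild-type library 2 the highest. Siglecf, a surface marker of mouse eosinophils with 2 listed transcripts, had 1 count in all. Alox15, a lipoxygenase of eosinophils and macrophages, had 11, 4 and 0 counts in knockout libraries and 0, 18 and 130 in wild-type libraries, so 81.6% of its CPM lay in wild-type library 3. Ear10, another ribonuclease of the family, had 24 of its 28 counts there, and Rnase2a, Rnase2b and Ear14 had 0 in every library. The other tested genes were the interleukin 33 receptor gene Il1rl1, at a log2 fold change of 0.37 (SE 0.72), and the leukotriene synthase gene Ltc4s, at 1.32 (SE 1.96).

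Genes of basophils and mast cells beyond the 2 proteases summed to 415, 320 and 382 CPM in knockout libraries 1, 2 and 3, against 935, 523 and 366 CPM in wild-type libraries 1, 2 and 3, with wild-type library 1 the highest. Most of each sum was 1 gene, Slc18a2. It had 278, 223 and 323 CPM in knockout libraries and 625, 310 and 298 CPM in wild-type libraries. Of 21 listed genes 8 had 0 counts in every library, among them the tryptase gene Tpsab1 and the proteases Mcpt1, Mcpt2, Mcpt4 and Mcpt9, and 7 were tested. All 7 had negative log2 fold changes, as did 52.8% of all tested genes. Their median was -1.31, and without wild-type library 3 the median of 9 tested genes was also -1.31. By edgeR 0 passed at adjusted p under 0.05 and 1 at an unadjusted p under 0.05 (4.65% of all tested genes reached that threshold with lower knockout values).

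That gene was Fcer1g, the signalling chain shared by several Fc receptors, with 418, 225 and 157 counts in knockout libraries 1, 2 and 3 against 939, 727 and 328 in wild-type libraries 1, 2 and 3 (log2 fold change -1.66, SE 0.56, adjusted p = 0.56). Fcer1a, the IgE-binding chain found on basophils and mast cells, had 123, 73 and 9 counts in knockout libraries and 0, 301 and 4 in wild-type libraries. Cpa3, the mast cell carboxypeptidase, had 844, 603 and 460 counts in knockout libraries and 1379, 498 and 87 in wild-type libraries, so wild-type library 3 was the lowest. Ms4a2, the beta chain of the IgE receptor with 4 listed transcripts, had 1 count, in wild-type library 3. The cytokine gene Il4 had 19, 37 and 28 counts in knockout libraries and 61, 71 and 70 in wild-type libraries. These groups did not overlap, as for 6.85% of all tested genes in that direction, and the fitted log2 change was -1.58 (SE 1.18, edgeR adjusted p = 0.78). Slc18a2, the vesicular monoamine transporter, and the granzyme gene Gzmb stood at -0.58 (SE 0.30) and -2.41 (SE 1.95), with 0 counts of Gzmb in wild-type library 3.

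Receptor chains for interleukin 5, interleukin 3 and GM-CSF and their signalling partners summed to 106, 64.5 and 108 CPM in knockout libraries 1, 2 and 3, against 310, 180 and 270 CPM in wild-type libraries 1, 2 and 3. Of 6 tested genes of this list 5 had negative log2 fold changes, as did 52.8% of all tested genes. The list's median was -1.27 (-1.05 without wild-type library 3). By edgeR 0 passed at adjusted p under 0.05. At an unadjusted p under 0.05 there were 2, both lower in knockout, where 4.65% of all tested genes were lower. Csf2rb2, the beta chain specific to the mouse interleukin 3 receptor, had 360, 147 and 258 counts in knockout libraries 1, 2 and 3 against 1241, 481 and 563 in wild-type libraries 1, 2 and 3. The fit gave it a log2 fold change of -1.97 (SE 0.55, edgeR adjusted p = 0.47). DESeq2, which called 108 of 10204 genes, called it. Csf2ra, the GM-CSF receptor alpha chain, stood at -1.16 (SE 0.50), and Csf2rb, the common beta chain, at -1.24 (SE 0.59). For these 3 genes every knockout library was below every wild-type library on the CPM scale, as for 6.85% of all tested genes.

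Among transcription factors of the eosinophil and basophil lineages, Gata1 and Gata2 had at least 183 counts in every library, while most counts of Cebpe and Cebpa lay in wild-type library 3. Gata2, which is needed in stem cells and for basophils, mast cells and eosinophils, had 5652, 5603 and 7818 counts in knockout libraries and 4282, 5652 and 4272 in wild-type libraries. Gata1, required for eosinophil development, had 657, 817 and 1169 counts in knockout libraries against 183, 291 and 429 in wild-type libraries (log2 fold change 1.24, SE 0.44, edgeR adjusted p = 0.57). Cebpe, a factor of late granulocyte maturation, had 46 counts in wild-type library 3 and 0 in each of the other 5. Cebpa, which directs granulocyte and monocyte commitment, had 0, 13 and 25 counts in knockout libraries and 0, 4 and 203 in wild-type libraries.

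Of 10 tested factors 7 had negative log2 fold changes and 3 positive, where 52.8% of all tested genes were negative. By edgeR 0 passed at adjusted p under 0.05. At an unadjusted p under 0.05 there was 1 lower (Trib1) and 1 higher (Gata1), where 4.65% and 2.63% of all tested genes were lower and higher. Trib1, a pseudokinase that restrains C/EBP alpha and is needed for eosinophil identity in mice, had 81, 217 and 97 counts in knockout libraries and 664, 183 and 755 in wild-type libraries. It was among the 108 of 10204 genes that DESeq2 called, while edgeR gave a log2 fold change of -2.37 (SE 0.69) with an adjusted p of 0.47. Irf8 and Zfpm1 (Friend of GATA), the next by p, stood at -2.34 (SE 1.40) and 0.46 (SE 0.29). The list's median was -0.865 with all libraries and 0.0212 without wild-type library 3.

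Genes for packaging and releasing granule contents had a count for 16 or 17 of 18 members in every library. Srgn, which encodes the proteoglycan core serglycin that holds basic granule proteins, had 8136, 9457 and 7495 counts in knockout libraries and 7017, 4561 and 6403 in wild-type libraries. Of 16 tested genes 11 had negative log2 fold changes, as did 52.8% of all tested genes. The list's median was -0.112, close to the -0.051 of all tested genes. By edgeR 0 passed at adjusted p under 0.05 and 2 at an unadjusted p under 0.05, both lower (4.65% of all tested genes were). These were Unc13d, a priming factor of granule exocytosis (log2 fold change -1.04, SE 0.33, adjusted p = 0.50), and Lyst, a regulator of granule size (-0.72, SE 0.27, adjusted p = 0.62). The next by p were Nbeal2 at -0.56 (SE 0.30) and the small GTPase gene Rab27b, with 2 listed transcripts, at -2.38 (SE 1.40). Summed CPM of the list was 2195 to 2247 in knockout libraries and 2126 to 2845 in wild-type libraries, with wild-type library 1 the highest.

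Granule genes of neutrophils were high in the same library as those of eosinophils. Of 17 such genes 16 had a count in wild-type library 3 and 6 to 10 in the other libraries. Wild-type library 3, which had a count for 12331 of all 23574 features, was the highest library for 15 of the 17. The share of all features highest there was not counted. Their summed level was 308, 370 and 478 CPM in knockout libraries 1, 2 and 3, against 563, 625 and 3147 CPM in wild-type libraries 1, 2 and 3. Elane, neutrophil elastase, had 1, 72 and 0 counts in knockout libraries and 1, 12 and 2150 in wild-type libraries. Chil3, which encodes the secreted lectin Ym1, and the ficolin gene Fcnb had 239 and 96 counts in wild-type library 3 and 0 in each of the others.

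Prtn3, proteinase 3, which had the smallest p of this list, differed from these in also being high in wild-type libraries 1 and 2. It had 25, 120 and 35 counts in knockout libraries and 960, 680 and 3312 in wild-type libraries (log2 fold change -5.07, SE 0.79, edgeR adjusted p = 0.19). Lyz2 stood at -0.86 (SE 0.31), S100a8 at -5.02 (SE 2.08) and Ctsg at -4.39 (SE 2.19). Of 7 tested genes all were negative, as were 52.8% of all tested genes. By edgeR 3 had an unadjusted p under 0.05, where 4.65% of all tested genes were lower. At adjusted p under 0.05, 0 passed edgeR's test, and Prtn3 was among the 108 of 10204 genes that DESeq2 called. The median of the list was -4.39 with all libraries and 1.03 without wild-type library 3.

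Markers of other blood cells were summed per library to set them beside the granule genes. B lineage and plasma cell genes summed to 300, 210 and 140 CPM in knockout libraries 1, 2 and 3, against 2057, 760 and 5625 CPM in wild-type libraries 1, 2 and 3. Most of each sum was 1 gene, Jchain. It had 235, 169 and 92.9 CPM in knockout libraries and 1949, 562 and 5074 CPM in wild-type libraries. All 11 genes of the list had a count in wild-type library 3, the library with a count for the most features, and 5 to 9 in the others. Monocyte and macrophage genes summed to 74.3, 127 and 48.4 CPM in knockout libraries, against 159, 213 and 481 CPM in wild-type libraries. Wild-type library 3 and knockout library 2 were each the highest for 4 of these 14 genes. Of their CPM over the 6 libraries, wild-type library 3 held 68.1% for the receptor gene Csf1r, 66.2% for Ly6c2 and 88.2% for Fcgr1. For the complement genes C1qa, C1qb and C1qc it held 0.931%, 3.63% and 0.981%. The macrophage marker Adgre1 had 2 counts in all, both in knockout library 2. T and NK cell genes summed to 338, 392 and 631 CPM in knockout libraries and 217, 245 and 133 CPM in wild-type libraries, with wild-type library 3 the lowest. Most of each knockout sum was Nkg7, with 254, 298 and 463 CPM there and 71.4, 156 and 97.3 CPM in wild-type libraries. Of 7 tested genes of this list 3 had negative log2 fold changes, among them Cd3e and Cd4, and 4 positive. Of all tested genes 52.8% were negative. Erythroid genes summed to 2180 to 2682 CPM in knockout libraries and 1793 to 2260 CPM in wild-type libraries. Most of each sum was Car2, at 1720 to 2305 CPM in knockout libraries and 1420 to 1809 CPM in wild-type libraries. The globin genes had at most 1 count. That count is not read as absence, since the treatment of reads shared between gene copies is not stated. Megakaryocyte genes summed to 797 to 1046 CPM in knockout libraries and 435 to 615 CPM in wild-type libraries. The part of admixed cells in the counts of the granule genes was not tested.

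**Figure D4:**
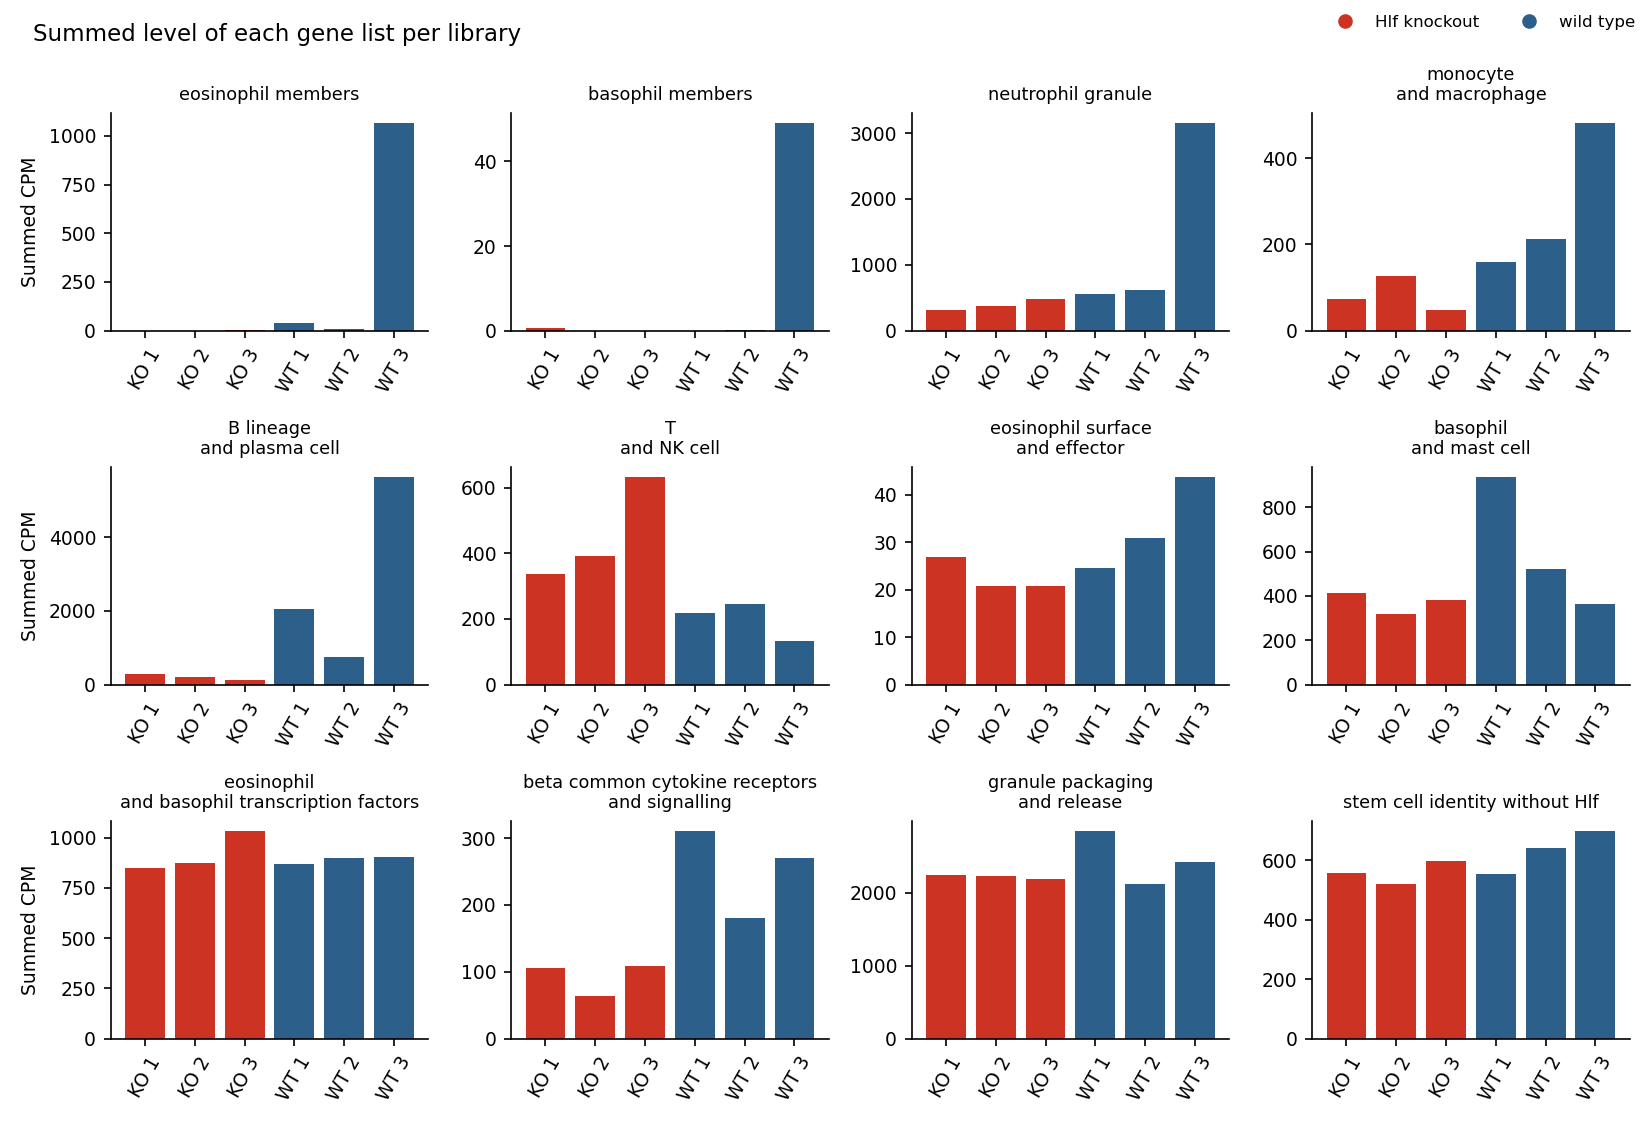
Summed CPM (vertical axis, linear from 0, a scale for each panel) of the granule genes and of 10 lists of related and other blood cell genes in the 3 knockout libraries (red) and the 3 wild-type libraries (blue). Wild-type library 3 is the highest for both granule gene sums and for the neutrophil, monocyte, B lineage and eosinophil surface lists and the stem cell list without Hlf, whereas basophil and mast cell genes are highest in wild-type library 1 and T and NK cell genes in knockout library 3.

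Features with the most similar distribution over the 6 libraries were sought among 10258 other features with at least 100 counts. Likeness was the overlap of profiles, in percent, after each profile was turned into shares of its own summed CPM. The median feature overlapped by 20.1% with the summed eosinophil genes, and 36 features overlapped by at least 90%. The 10 most alike were Spag6 (97.4%), Rab26, Cd79a, Gapt, Elane (96.0%), Elapor1, Prss27, Ctsg, Ston1 and Cstad (95.5%). For the summed basophil genes 32 features overlapped by at least 90%, and the 10 most alike were Bmp2 (99.7%), Lcn2, Gapt, Ms4a1, Chil3, Dcst1, Mrgpra2b, Nox1, Nrg1 and Septin3 (98.3%). Elane, Ctsg and Lcn2 are neutrophil granule genes, Cd79a and Ms4a1 (CD20) are B cell genes, and Gapt encodes an adaptor that binds Grb2. All of these have nearly all their counts in wild-type library 3, so the likeness rests on that library.

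Every library held some features nearly alone. At least 90% of a feature's CPM lay in knockout libraries 1, 2 and 3 for 7, 11 and 14 of 10264 features with at least 100 counts, while wild-type libraries 1, 2 and 3 held 33, 30 and 36 such features, the last being 0.351%. All 6 granule genes with at least 100 counts were among those of wild-type library 3, a distribution for which they had been picked.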

How the data were processed

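RNA of 6 libraries was sequenced, 3 from HLF KO and 3 from wild-type mice. The tables that the authors deposited, 1 a library, hold raw counts per RefSeq transcript with no scaling. TopHat and mouse build mm9 are named per the submitters' processing notes. Versions, the counting tool, strand use and the treatment of shared reads are not stated there.

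Of 30858 transcripts 30363 were named from a RefSeq table (GRCm38.p6), 179 from GENCODE M21 and 316 kept their accession. Counts were summed per gene. The granule genes and all gene lists were chosen with earlier results of these data known.

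Knockout was compared with wild type in edgeR 4.0.16 (R 4.3.3) with TMM factors, filterByExpr (counts of at least 10, totals of at least 15) and the quasi-likelihood F test with robust estimation and genotype as the only term. Benjamini-Hochberg adjustment ran over 10204 genes at a threshold of 0.05. Standard errors came from the F statistic. The fit was tested on simulated data with changes planted in genes with a mean level of at least 4 on the log2 CPM scale. It recovered 4% of 2-fold, 50% of 4-fold, 78% of 8-fold and 80% of 16-fold changes, with 3 false calls among 109. A gene that was not called may therefore still differ. Recovery was not measured for genes below that level, and some genes named here, such as Il4, lie below it. Poisson intervals are exact and 2-sided at 95%, and for a count of 0 they end at 3.69 counts. The limit of 3 counts given for a count of 0 is the lower, 1-sided 95% limit. The 4 tested genes of smallest p per list of related cells, fixed lineage genes and the 10 most alike profiles were named. Lists of monocytes and of B, T, erythroid, megakaryocyte and stem cells are given as sums, with a few of their genes named as examples. Alternatives used DESeq2 1.42.0, limma-voom 3.58.1, other scalings and filters, each library left out and a replicate block.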

Additional observations from a re-analysis of the deposited data

How the results depend on the processing

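Hlf was the 1 gene called with RLE size factors, with library size alone, with at least 30 counts in 3 libraries, by limma-voom and by edgeR in the main settings. With no filter on low counts 9 of 14669 genes were called (3 in the gene lists: Hlf, Nkg7 and Pf4). By DESeq2 108 of 10204 were called (11 in the lists, among them Csf2rb2, Trib1 and Prtn3). Leaving out each library gave 1 to 3 calls, with 1 to 3 in the lists: Pf4 and Pou2af1 joined Hlf without wild-type library 1, and Jchain without wild-type library 2. The labels number libraries 1 to 3 in both genotypes, but same-numbered libraries did not deviate together (correlations of -0.0216 to 0.0204), and knockout libraries 1, 2 and 3 correlated best with wild-type libraries 2, 3 and 3, so the numbers were not taken as pairs. With the replicate block the count was 2, Hlf and Prg2, and the Prg2 log2 fold change was -7.51. Prg2 had been chosen with its counts known, so nothing is read from that call.

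Leaving out each library, the Prg2 log2 fold change ranged from -9.77 to -4.89, the summed eosinophil difference from -549.3 to -23.4 CPM and the basophil one from -24.4 to 0.191 CPM. The last of each is without wild-type library 3, as the sums are nearly all from that library. Ear2, Ear6 and Mcpt8 had at most 8 counts in any other library, so their values there rest on few reads.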

Other observations

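Each library held other features at high counts that were almost absent elsewhere, named here after their values were seen from the 5 highest of each library. In knockout library 1 Myrf had 232 counts, with at most 13 in any other library, and in knockout library 2 Sema5a had 216, with 0 elsewhere. In knockout library 3 Atp2b3 had 220, with at most 1. In wild-type library 1 the homeobox gene Hoxa11 had 860 counts and 0 elsewhere, and Kif5c, a neuronal kinesin, had 916, with at most 123. In wild-type library 2 Ppp1r3g, a glycogen-targeting subunit of protein phosphatase 1, had 1711 counts, with at most 1 elsewhere. In wild-type library 3 the 5 highest were Prg2, Elane, Ear1, Irf4 and Epx, where Irf4, a lymphoid and plasma cell factor, had 1482 counts and at most 87 elsewhere.

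Among the basophil and mast cell genes, Cyp11a1, which starts steroid synthesis, had 256 counts in wild-type library 2 and at most 13 in any other, while Prss34 had 0 there and Mcpt8 had 1. Hrh4, the histamine receptor of eosinophils and mast cells, had 19 counts in knockout library 1 and 0 in each of the others, and Mcpt8 had 8 there. Tpsb2, a mast cell tryptase, had 13 counts in that library and 0 elsewhere.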
